A study of Mus musculus with 25 samples.

Results

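Batf, Batf2, Batf3 and Nfil3, 4 of the 24411 gene symbols in the count tables, were followed in mouse macrophages. The first 3 are the whole BATF family, and Nfil3 was taken with them as another basic leucine zipper (bZIP) factor. All 4 symbols had a row in every table, and they were followed across all 25 samples. Bone marrow-derived macrophages (BMDMs) were grown from the marrow of C57BL/6 mice in 25 ng/ml M-CSF over 4 days. M-CSF is the growth factor that turns marrow precursors into macrophages. The 21 BMDM samples formed 7 groups of 3. The control BMDMs received no stimulus and were labelled as cultured for 4 h. A further 4 groups received LPS, a bacterial cell wall component, at 100 ng/ml after priming with IFN-γ at 100 U/ml, and were labelled 1, 4, 12 and 24 h. Other BMDMs received 10 ng/ml IL-4 or 10 ng/ml IL-13 for 12 h. RAW264.7 is an established mouse macrophage cell line, and its 4 samples formed 2 groups of 2, a control and 100 ng/ml LPS alone for 4 h. The control BMDMs are the reference of every BMDM comparison with control, so these comparisons share 3 samples. Control and stimulated cells also differed in labelled time, except at 4 h, and this cannot be told apart from the stimulus. The sources used here leave unclear whether the priming with IFN-γ counts within these times, so equal labels need not mean equal time in culture.

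BATF, BATF2 and BATF3 belong to the AP-1 group of bZIP factors. They are short proteins without a transactivation domain of their own. They pair with JUN proteins and, on composite elements of AP-1 and IRF sites, act together with IRF4 or IRF8. BATF is best known from T helper cells, BATF3 from the cross-presenting dendritic cells that depend on it, and BATF2 as an interferon-induced factor of macrophages. NFIL3, also called E4BP4, is a repressor that binds the same D-box sequence as the PAR bZIP activators DBP, TEF and HLF. It is known from natural killer and innate lymphoid cells and from the circadian clock.

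On the mm10 genome with the GENCODE M21 annotation, Batf (ENSMUSG00000034266.6) spans chr12:85686669-85709087 on the plus strand and its main transcript has 3 exons and 955 bases. Batf2 (ENSMUSG00000039699.14) spans chr19:6140983-6172476 on the plus strand, with 3 exons and 1391 bases. An exon of Arl2 lies opposite to it on the other strand. Batf3 (ENSMUSG00000026630.9) spans chr1:191097847-191108945 on the plus strand, with 3 exons and 801 bases. Nfil3 (ENSMUSG00000056749.7) spans chr13:52967209-52981073 on the minus strand, with 2 exons and 2026 bases. No exon of another gene overlapped these genes on the same strand, and the counts used were those on the strand of the gene. Summed over all samples, Batf had 1233 counts on its own strand and 10 on the other, Batf2 had 1677 and 4, Batf3 had 205 and 1, and Nfil3 had 825 and 1.

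Promoters from 250 bases before to 50 bases after the start site were taken from RefSeq on GRCm38.p6, where 3 of the 4 genes matched. They are shown because the members rose with different sets of stimuli, Batf with IFN-γ-primed LPS, Batf3 with IL-4 and IL-13, and Nfil3 with both. The promoter of Batf lies at chr12:85686470-85686769, that of Batf3 at chr1:191098164-191098463, both on the plus strand, and that of Nfil3 at chr13:52980990-52981289 on the minus strand. Capitals mark the matches to 6 short motifs searched on both strands, and each sequence runs 5′ to 3′ along the strand of its gene.
Batf: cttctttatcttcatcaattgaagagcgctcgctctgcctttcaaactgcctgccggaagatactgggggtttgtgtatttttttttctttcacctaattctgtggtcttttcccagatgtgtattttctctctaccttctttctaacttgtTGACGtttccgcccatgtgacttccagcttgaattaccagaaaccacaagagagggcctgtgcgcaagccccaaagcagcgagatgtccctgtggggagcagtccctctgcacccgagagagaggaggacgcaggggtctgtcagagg
Batf3: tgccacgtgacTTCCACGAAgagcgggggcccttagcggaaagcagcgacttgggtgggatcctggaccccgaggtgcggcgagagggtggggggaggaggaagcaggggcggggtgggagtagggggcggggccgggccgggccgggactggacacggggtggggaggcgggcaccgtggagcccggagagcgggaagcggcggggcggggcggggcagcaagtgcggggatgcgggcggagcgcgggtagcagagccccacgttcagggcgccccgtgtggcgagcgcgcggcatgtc
Nfil3: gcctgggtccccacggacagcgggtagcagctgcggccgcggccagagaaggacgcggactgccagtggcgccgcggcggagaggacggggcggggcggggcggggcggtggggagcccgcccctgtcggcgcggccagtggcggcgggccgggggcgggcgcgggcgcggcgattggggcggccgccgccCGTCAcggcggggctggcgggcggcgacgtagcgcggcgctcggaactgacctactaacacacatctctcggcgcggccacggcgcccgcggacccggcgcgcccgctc
The motifs were the AP-1 site TGANTCA, the D-box TTANNTAA, the core TGACG of a cyclic AMP response element, the interferon-stimulated response element core GAAANNGAA, the STAT site TTCNNNGAA and the NF-κB site GGANTTTCC. The Batf promoter held TGACG at position -98, counted with the base before the start site as -1. The Nfil3 promoter held the same core on the other strand, with its first base at -59. This core occurred in 20.8% of 32851 RefSeq promoters of the same length. The Batf3 promoter held 1 match to the STAT site, at -239, which 8.30% of promoters hold. No match to the AP-1 site (7.81% of promoters), the D-box (6.00%), the interferon-stimulated response element core (8.56%) or the NF-κB site (1.25%) was in these 3 windows. No marked match overlapped another. The promoters of Batf3 and Nfil3 were rich in G and C, with 75.7% and 81.7%, whereas that of Batf had 49.7%, and the median of all promoters was 52.7%. They held 34, 54 and 9 CpG dinucleotides, respectively, against a median of 7.

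RNA-seq gave 2378639 to 3357300 counts on genes per sample (median 2718848), of which the ribosomal precursor Rn45s took 20.1% to 39.8%. It was left out, and 1502618 to 2532496 counts per sample remained. Levels are given as CPM, the usual depth-scaled count, over these. A count of 0 in a sample allows a level of up to 1.18 to 2.0 CPM (3 counts), which covers counting error only. All 7 macrophage markers, among them Adgre1, Csf1r and Cd68, were detected in every BMDM group, and 6 of 7 in RAW264.7, where Mertk was at 0. Of 5 T cell genes, Cd3e, Cd3g and Cd3d were at 0 in every group, while the sum of the list was 0.596 to 1.75 CPM in the control, 3.01 to 9.32 CPM at 4 h, all of it Lck, and 0 to 1.71 CPM in the other BMDM groups. Its part in the levels at 4 h was not tested. The counts antisense to Rn45s set the libraries apart, at 0.0386% to 0.122% of Rn45s counts in 12 libraries (control, and IFN-γ-primed LPS at 1, 4 and 12 h) and at 0.00603% to 0.0214% in 9 (IL-4, IL-13, and IFN-γ-primed LPS at 24 h). Every comparison of IL-4, IL-13 or 24 h with the control or with 12 h crosses this gap, which cannot be told apart from the treatment there. The 1, 4 and 12 h comparisons with control do not cross it. The 4 RAW264.7 libraries had 0.0199% to 0.0283%, below every control BMDM library. In RAW264.7 against BMDM control, this difference cannot be told apart from the cell type. In samples of whole cultures, fewer cells of a type and less RNA per cell cannot be told apart.

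Batf was low in control BMDMs and at 1 h, rose by 4 h and stayed high at 12 and 24 h of IFN-γ-primed LPS. It had 2.97, 1.19 and 1.75 CPM in the 3 control samples and 2.66, 1.21 and 3.33 CPM at 1 h, so these groups overlapped. At 4 h it had 28.0, 34.5 and 27.1 CPM. All 3 samples lay above every control and 1 h sample. At 12 h the values were 81.2, 73.1 and 70.8 CPM, and at 24 h 84.7, 81.8 and 79.0 CPM. The 12 h samples lay above all 4 h samples, and the ranges at 12 and 24 h overlapped. The control rests on 10 counts over its 3 samples, so its level is known less well than those at 12 and 24 h, with 434 and 560 counts.

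Batf2, the family member induced by interferon, had the largest rise of the family at 1 h, peaked at 4 h and then declined. Its control values were 1.78, 0.596 and 1.75 CPM. At 1 h it had 15.4, 10.3 and 19.0 CPM, above every control sample. It reached 154, 145 and 138 CPM at 4 h, the highest CPM of any member. At 12 h it had 79.2, 67.4 and 80.9 CPM, and at 24 h 51.6, 62.5 and 46.2 CPM. None of these successive groups overlapped, so the order of the means was 4 h, 12 h, 24 h, 1 h and control.

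Batf3 was hardly detected during IFN-γ-primed LPS stimulation. The control samples held 1, 3 and 2 counts of it, and the 1 h samples held 5, 9 and 6, which is 2.66, 5.44 and 2.85 CPM. The 1 h samples lay above those of the control. At 4 h the samples held 0, 1 and 1 counts, at 12 h 1, 1 and 0, and at 24 h 0, 4 and 1. The 4, 12 and 24 h samples overlapped the control. From pooled counts, the level at 1 h was 3.0 times the control (95% counting interval 1.16 to 9.14) and 8.80 times that at 4 h (2.14 to 77.6). The control was 2.93 times the 4 h level, with an interval of 0.524 to 29.7, so a fall was not detectable at this depth.

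Nfil3, the repressor of D-box genes, rose early and transiently with IFN-γ-primed LPS. Its control values were 5.95, 8.34 and 5.24 CPM, and those at 1 h were 14.9, 13.3 and 17.1 CPM. At 4 h it had 28.0, 30.6 and 22.3 CPM. These 3 groups did not overlap. It then had 9.20, 10.8 and 10.1 CPM at 12 h and 6.98, 7.82 and 5.13 CPM at 24 h. The 12 h samples were still above every control sample, while the 24 h samples overlapped the control.

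**Figure D1:**
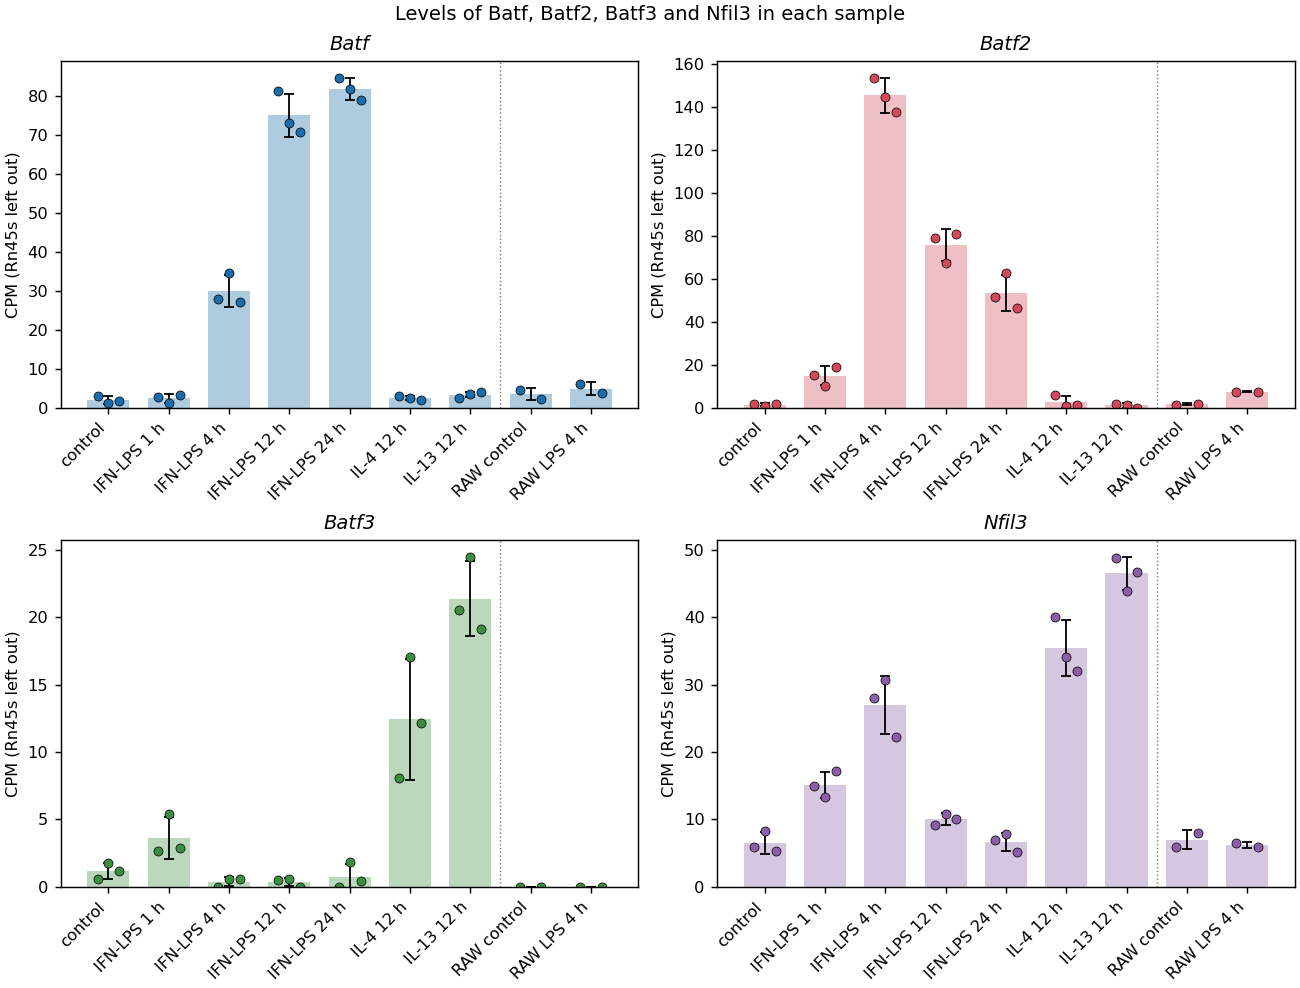
Level of each member in CPM (vertical axis, linear, Rn45s left out) in the 9 groups (horizontal axis). Points are samples, bars are group means and error bars are SD (n = 3, or n = 2 for RAW264.7). Batf stays high to 24 h, Batf2 is highest at 4 h, Batf3 is highest with IL-13, and Nfil3 is high at 4 h and with IL-4 and IL-13.

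Changes in the time course were tested with edgeR's quasi-likelihood test over the 9568 genes that passed its count filter, with Benjamini-Hochberg adjustment over all of them. A gene was called where its adjusted p (FDR) did not exceed 0.01 and its log2-fold change was 1 or more in size. Batf, Batf2 and Nfil3 passed the filter, and Batf3 did not. Batf and Batf2 passed through the stimulated groups in which they are high, so the counts of members called are not read against the shares of all genes beside them. At 1 h against control, 2 of these 3 were called, Batf2 and Nfil3, against 12.3% of all genes tested. The log2-fold change was 3.58 for Batf2 (standard error 0.408, adjusted p = 4.26e-10 by edgeR). Nfil3 had 1.41 (standard error 0.282, adjusted p = 7.06e-05 by edgeR). Batf did not pass, with 0.50 and a 95% interval of -0.58 to 1.59.

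At 4 h against control, all 3 tested members were upregulated, where 33.7% of all genes tested were called in either direction. The log2-fold change was 7.17 for Batf2 (standard error 0.252), 4.40 for Batf (0.306) and 2.57 for Nfil3 (0.255), with adjusted p = 5.22e-29, 1.71e-17 and 2.64e-12 by edgeR. From 1 to 4 h, all 3 rose again, against 23.1% of genes called. Most of the rise of Batf fell in this step, with 3.90 (standard error 0.286), while Batf2 rose by 3.59 (0.163) and Nfil3 by 1.16 (0.212). For Nfil3 this call was lost when libraries were scaled by their totals alone, where the log2-fold change was 0.82.

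From 4 to 12 h the members parted, and all 3 tested were called, where 18.5% of all genes were. Batf rose further, by 1.10 on the log2 scale (standard error 0.151, adjusted p = 3.38e-08 by edgeR). Batf2 fell by 1.15 on the log2 scale (standard error 0.126, adjusted p = 9.65e-11 by edgeR) and Nfil3 fell by 1.64 (standard error 0.228, adjusted p = 4.66e-08 by edgeR). With libraries scaled by their totals alone, Batf2 had -0.93, past the FDR but short of the size cutoff. At 12 h against control, 2 of 3 were called, against 27.4% of all genes: Batf with 5.50 (standard error 0.252) and Batf2 with 6.02 (0.284). Nfil3 had 0.93 with an adjusted p = 0.00871 by edgeR, under the size cutoff, and reached 1.15 and was called when control replicate 2 was left out.

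At 24 h against control, Batf had a log2-fold change of 5.54 (standard error 0.247) and Batf2 5.42 (0.303), so 2 of 3 tested members were called, against 24.2% of all genes. Nfil3 had 0.24 with a 95% interval of -0.42 to 0.89. From 12 to 24 h, none of the 3 tested members was called by edgeR, where 3.80% of genes were. Batf had 0.04 with an interval of -0.21 to 0.29. Batf2 had -0.60 with an adjusted p = 0.000746 by edgeR, which missed only the size cutoff, and Nfil3 had -0.69 with an interval of -1.26 to -0.11 and an adjusted p = 0.0776. Of these, Batf2 and Nfil3 had an unadjusted p under 0.05, and DESeq2 also called none.

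Batf3 was tested in the time course only without the filter or with all 25 samples in 1 fit. At 1 h against control, it had a log2-fold change of 1.75 in both fits (adjusted p = 0.0509 and 0.0290 by edgeR) and was not called. From 1 to 4 h it had -2.67 without the filter (adjusted p = 0.0127 by edgeR) and -2.64 with all samples (adjusted p = 0.00868), so it was called in the latter fit alone. In 4, 12 and 24 h against control it was not called in either fit.

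IL-4 and IL-13, the cytokines of alternative macrophage activation, raised Batf3 and Nfil3 and left Batf and Batf2 low. Batf3 had 8.11, 17.1 and 12.2 CPM with IL-4 (14, 28 and 19 counts) and 20.6, 24.5 and 19.1 CPM with IL-13 (32, 43 and 34 counts). Every sample lay far above the control range of 0.595 to 1.79 CPM, and every IL-13 sample lay above every IL-4 sample. Nfil3 had 39.97, 34.1 and 32.0 CPM with IL-4 and 48.8, 43.9 and 46.7 CPM with IL-13. Here too the 3 groups did not overlap. In CPM, both cytokine groups lay above the 4 h peak of the LPS time course. The edgeR fits against the same control gave Nfil3 log2-fold changes of 2.57 at 4 h, 2.43 with IL-4 and 2.78 with IL-13. The order of IL-4 and 4 h therefore depends on the scaling.

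Batf and Batf2 showed no such rise. Batf had 2.90, 2.44 and 1.92 CPM with IL-4 and 2.57, 3.42 and 3.94 CPM with IL-13. Batf2 had 5.79, 0.610 and 1.28 CPM with IL-4 and 1.93, 1.14 and 0 CPM with IL-13. All 4 of these groups overlapped the control samples, and the mean of Batf2 with IL-4 rests mostly on replicate 1.

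Over 9252 genes tested in control, IL-4 and IL-13 BMDMs, with a size cutoff of 0.7 on the log2 scale, 3.86% of genes were called with IL-4 and 5.36% with IL-13. Batf3 and Nfil3 passed the filter and both were upregulated by either cytokine. Batf3 passed it only through the IL-4 and IL-13 samples in which it is high, so the count of 2 is not read against these shares. Its log2-fold change was 3.31 with IL-4 (standard error 0.472, adjusted p = 3.22e-07 by edgeR) and 4.06 with IL-13 (standard error 0.416, adjusted p = 2.61e-11 by edgeR). Without the filter it was 3.32 and 4.07, and still called. In pooled counts, this was 10.5 times the control with IL-4 (95% counting interval 4.55 to 29.7) and 18.1 times with IL-13 (8.07 to 50.5). Nfil3 had 2.43 with IL-4 (standard error 0.239, adjusted p = 1.15e-11 by edgeR) and 2.78 with IL-13 (standard error 0.226, adjusted p = 9.72e-15 by edgeR). Batf and Batf2 did not pass the filter, and without it neither was called, with log2-fold changes of 0.30 and 0.90 for IL-4 and 0.72 and -0.48 for IL-13.

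IL-13 against IL-4 called 0.0649% of genes, and neither Batf3 nor Nfil3 was among them in edgeR or DESeq2. Batf3 was higher with IL-13 by 0.75 on the log2 scale (95% interval 0.24 to 1.26, adjusted p = 0.386 by edgeR). Nfil3 was higher by 0.35 (95% interval 0.03 to 0.67, adjusted p = 0.640 by edgeR). For both, the unadjusted p was under 0.05, and both failed the adjustment over all genes.

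**Figure D2:**
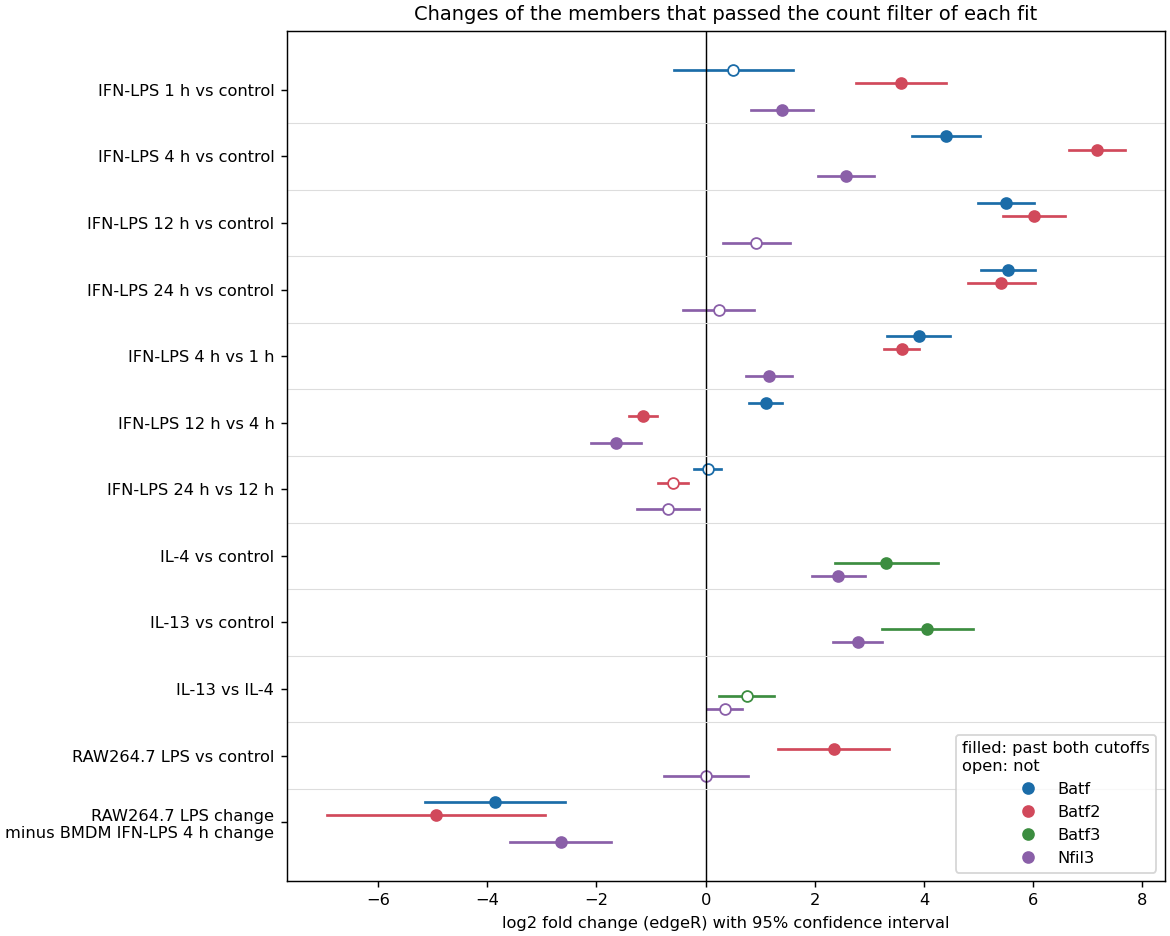
Log2-fold change of each member (horizontal axis) with its 95% confidence interval in 12 comparisons (vertical axis), for members that passed the count filter of the fit. Filled points passed both cutoffs and open points did not. In the step from 12 h against 4 h, Batf is at 1.10 while Batf2 and Nfil3 are at -1.15 and -1.64.

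IFN-γ-primed LPS at 12 h was also set against IL-4 and IL-13 at 12 h, which have the same labelled time, in a fit of all 25 samples. These libraries lie on either side of the gap in Rn45s antisense counts, which cannot be told apart from the stimulus here. There 24.4% of genes were called against IL-4 and 24.3% against IL-13, and all 4 members passed the filter and were called in both. Batf and Batf2 passed it through the IFN-γ-primed LPS groups and Batf3 through IL-4 and IL-13, where they are high, so their count is not read against these shares. Batf was higher with IFN-γ-primed LPS, with log2-fold changes of 5.25 against IL-4 (standard error 0.247, adjusted p = 8.89e-31 by edgeR) and 4.83 against IL-13 (0.230). Batf2 was higher by 5.16 (0.271) and 6.55 (0.321). Nfil3 was lower, with -1.47 (standard error 0.214, adjusted p = 1.24e-08 by edgeR) and -1.83 (0.204, adjusted p = 2.25e-12 by edgeR). Batf3 was lower too (adjusted p = 3.31e-09 and 2.65e-13 by edgeR). Since the 12 h samples hold 2 Batf3 counts in all, its size is given as a ratio of pooled counts, 35.8 for IL-4 over IFN-γ-primed LPS (95% counting interval 9.50 to 302) and 62.0 for IL-13 (16.8 to 518). The 24 h samples of IFN-γ-primed LPS lie on the same side of the gap as IL-4 and IL-13 but differ in labelled time. In them, Batf had 79.0 to 84.7 CPM, Batf2 46.2 to 62.5 CPM, Batf3 0 to 1.84 CPM and Nfil3 5.13 to 7.82 CPM. A difference between 24 h and IL-4 or IL-13 was not tested.

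In RAW264.7, LPS alone left the family low. Batf had 4.59 and 2.34 CPM in the control and 6.04 and 3.76 CPM after 4 h of LPS, and the groups overlapped. Batf2 had 1.38 and 1.87 CPM in the control and 7.43 and 7.53 CPM with LPS, with no overlap. Nfil3 had 5.97 and 7.96 CPM in the control and 6.503 and 5.85 CPM with LPS. Batf3 had 0 counts in all 4 RAW264.7 samples, which allows up to 1.25 to 1.40 CPM per sample.

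Of 9406 genes tested in RAW264.7, 11.1% were called at a size cutoff of 1. Of the members, Batf2 and Nfil3 passed the filter, Batf2 only through its LPS samples (16 and 18 counts, against 3 and 4 in the control), and Batf2 was called, up by 2.34 on the log2 scale (standard error 0.522, adjusted p = 4.75e-05 by edgeR). That call was lost with DESeq2 (adjusted p = 0.0314) and without RAW264.7 control replicate 1 (2.13, adjusted p = 0.0111 by edgeR), within a range of adjusted p from 4.69e-05 to 0.0314 over its alternatives. Nfil3 had 0.00 with a 95% interval of -0.77 to 0.78. Batf did not pass the filter, and without it had 0.65 with an interval of -0.34 to 1.65 and was not called.

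The difference between the change in RAW264.7 and that in BMDMs at 4 h was tested in the fit of all 25 samples, where 19.0% of 10612 genes were called. The stimuli differed, since RAW264.7 received LPS without IFN-γ, so cell type and stimulus cannot be told apart. Of the 4 members, 3 were called, with a smaller change in RAW264.7. Batf and Batf2 passed the filter of this fit through stimulated groups in which they are high, so the count is not read against that share. The difference in log2-fold change was -4.94 for Batf2 (standard error 0.998, adjusted p = 4.25e-05 by edgeR), -3.86 for Batf (0.643, adjusted p = 8.82e-07 by edgeR) and -2.66 for Nfil3 (0.462, adjusted p = 2.11e-06 by edgeR). Batf3, at 0 in RAW264.7, gave no usable value. Unstimulated RAW264.7 against control BMDMs called 47.5% of genes and none of the 4 members by edgeR. Batf, Batf2 and Batf3 had 15, 7 and 0 counts in all in the RAW264.7 control, and 10, 7 and 6 in control BMDMs. With so few counts, the lack of calls is not read against that share. Of the 4 members, 1 had an unadjusted p under 0.05. Batf3 (adjusted p = 0.0131 by edgeR) was called with the replicate block and Batf, Batf2 and Nfil3 had intervals of -0.53 to 1.63, -1.59 to 1.56 and -0.85 to 0.55.

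Set against each other per length, the leading member changed with the stimulus. In control BMDMs, Nfil3 was highest with 3.21 CPM per kb of exon, and the other 3 had 0.989 to 2.06 CPM per kb. The samples of Nfil3 and Batf overlapped there. At 4 h, Batf2 led with 105 CPM per kb, followed by Batf with 31.3 and Nfil3 with 13.3. At 12 and 24 h, Batf led with 78.6 and 85.7 CPM per kb, and Batf2 followed with 54.5 and 38.4. With IL-4, Nfil3 had 17.5 and Batf3 15.5 CPM per kb, a difference smaller than the SD of Batf3 (5.60). With IL-13, Batf3 had 26.7 ± 3.46 CPM per kb and Nfil3 22.9 ± 1.23 (SD, n = 3).

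**Figure D3:**
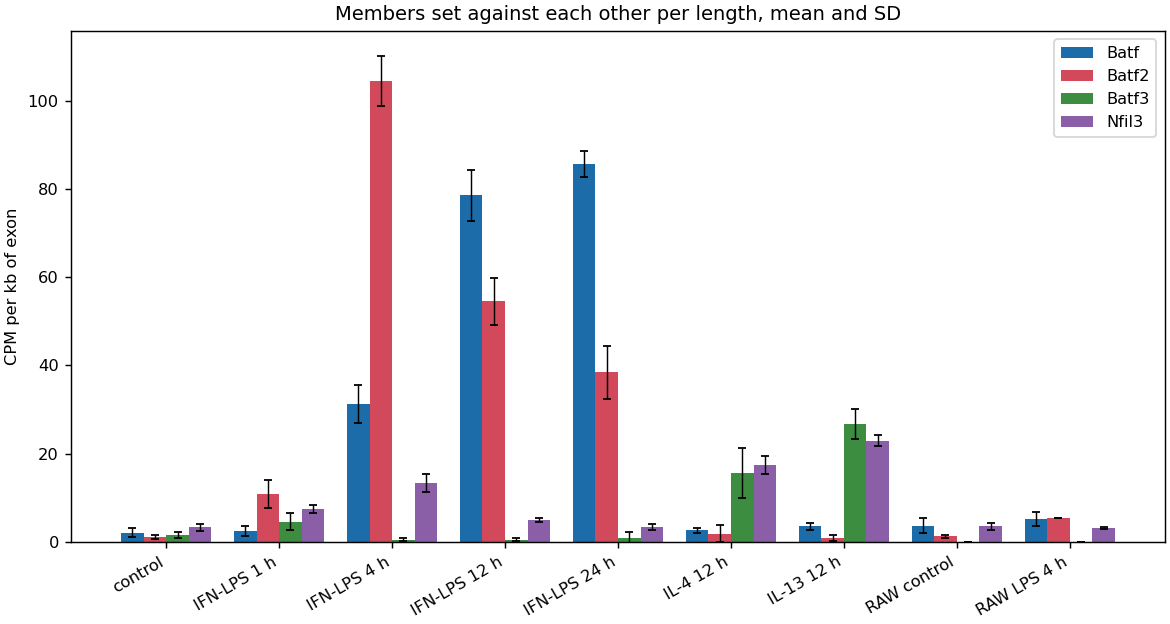
Mean level of the 4 members per kb of exon (vertical axis, CPM per kb) in the 9 groups (horizontal axis), with SD as error bars (n = 3, or n = 2 for RAW264.7). Batf2 leads at 4 h with 105, Batf at 12 and 24 h with 78.6 and 85.7, and Batf3 and Nfil3 with IL-4 and IL-13.

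The partners of BATF proteins were taken as a list of 6, the AP-1 genes Jun, Junb and Jund and the interferon regulatory factors Irf1, Irf4 and Irf8. At 4 h of IFN-γ-primed LPS, Irf1, Irf8 and Junb were upregulated and Jun was downregulated among the 5 tested, where 33.7% of all genes tested were called. The median log2-fold change of the 5 was 2.51, against -0.07 over all genes tested. Irf8, a partner in composite elements, had a group mean of 105 CPM in the control, 417 CPM at 4 h and 36.3 CPM at 12 h, when Batf was near its highest. Irf1, which acts downstream of IFN-γ, was already at 1488 CPM at 1 h and 1653 CPM at 4 h, from 48.5 CPM in the control. Irf4, the other composite partner, followed the stimuli of Batf3 in BMDMs: its mean was 1.38 CPM in the control, 0.170 CPM at 12 h of IFN-γ-primed LPS, 9.27 CPM with IL-4 and 26.8 CPM with IL-13. It rose with IL-4 (log2-fold change 2.69, standard error 0.475, adjusted p = 2.51e-05 by edgeR) and IL-13 (4.17, standard error 0.373, adjusted p = 3.18e-13 by edgeR), and was higher with IL-13 than with IL-4 (1.49, standard error 0.249, adjusted p = 0.000410 by edgeR). Irf1 and Irf4 were the 2 of 6 partners called with either cytokine, where 3.86% of all genes tested were called with IL-4 and 5.36% with IL-13. Irf4 had 7 counts in all in the control, 46 with IL-4 and 137 with IL-13. It passed the filter through these cytokine samples, so the count is not read against these shares. In RAW264.7, where Batf3 was at 0, Irf4 had a mean of 3.94 CPM in the control and 8.06 CPM with LPS.

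Among 9 other AP-1 and small Maf genes, 4 of 7 tested rose at 1 h, when 12.3% of all genes were called (Fos, Fosl2, Jdp2 and Maff), of which Fos and Fosl2 fell short of the size cutoff with libraries scaled by their totals alone. At 4 h, where 33.7% of all genes were called, Jdp2, Maff and Mafk were up and Fos was down. With IL-4, where 3.86% of all genes were called, only Maff was. With IL-13, where 5.36% were called, Maff was up and Fos down. In RAW264.7, where 11.1% of all genes were called, 6 of 8 rose with LPS (Atf3, Fosl1, Fosl2, Jdp2, Maff and Mafk). Junb also rose there, with a log2-fold change of 2.38 (standard error 0.0803). Only 2 of the 4 members were tested in RAW264.7. Of these, Batf2 was called, and that call was lost with DESeq2.

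The list around Nfil3 held the PAR bZIP genes Dbp, Tef and Hlf, whose proteins share its D-box, and the clock genes Nr1d1, Nr1d2, Per1 and Per2. At 1 h, when Nfil3 was already called up and 12.3% of all genes were called, Dbp alone of 4 tested was called (log2-fold change -1.04). Tef (-0.64), Per1 (-0.60) and Nr1d2 (0.16) were not. At 4 h, when Nfil3 peaked within the time course, all 4 that passed the filter were downregulated (Dbp, Tef, Nr1d2 and Per1, median log2-fold change -3.45). There 33.7% of all genes were called, 1692 of 9568 were called down, and the median of all genes was -0.07. Dbp fell by 5.27 on the log2 scale and its mean went from 14.1 CPM in the control to 0.222 CPM at 4 h. Tef fell from 107 to 11.5 CPM and Per1 from 17.5 to 0.593 CPM. At 12 h, Tef was at 43.3 CPM and Per1 at 6.54 CPM, and both rose from 4 h (log2-fold changes 1.70 and 3.11), the step in which Nfil3 fell. Dbp (2.44, adjusted p = 0.064 by edgeR) and Nr1d2 (0.78, under the size cutoff) were not called in that step. Nfil3 had a log2-fold change of 2.43 with IL-4, against 2.57 at 4 h of IFN-γ-primed LPS. With IL-4, where 3.86% of all genes were called, Dbp and Per1 fell (by 1.31 and 1.15 on the log2 scale). With IL-13, where 5.36% were called, Dbp alone of 4 was. In RAW264.7, where Nfil3 had no call and 11.1% of all genes were called, Nr1d2 fell and the other 2 tested were not called. Hlf was at 0 in every group, and Nr1d1 and Per2 did not pass a filter in the BMDM time course. At 12 h against control, 27.4% of all genes were called and Nfil3 was under the size cutoff. Dbp and Per1 were then still called down (-2.83 and -1.10), while Tef (-0.99) and Nr1d2 (-0.61) fell short of the size cutoff. All 4 tested were again down at 24 h, when 24.2% of all genes were called and Nfil3 overlapped its control. The part of Nfil3 in the changes of these genes was not tested.

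A last list held 4 inflammatory genes, Il12b, Nos2, Ccl5 and Tnf. All 4 were upregulated at 4, 12 and 24 h of IFN-γ-primed LPS, where 33.7%, 27.4% and 24.2% of all genes tested were called. Il12b, Nos2 and Ccl5 had 2, 0 and 4 counts in all in the control and passed the filter through the stimulated groups. Their count is therefore not read against these shares. Il12b, which encodes a subunit of IL-12, had means of 2281 CPM at 4 h, 4544 CPM at 12 h and 1663 CPM at 24 h, and Nos2, the inducible nitric oxide synthase, had 328, 396 and 74.2 CPM. Il12b and Nos2 were at 0 with IL-4 and IL-13, but control BMDMs had means of only 0.393 and 0 CPM, so a fall could not be seen. Il12b was also at 0 in both RAW264.7 groups.

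**Figure D4:**
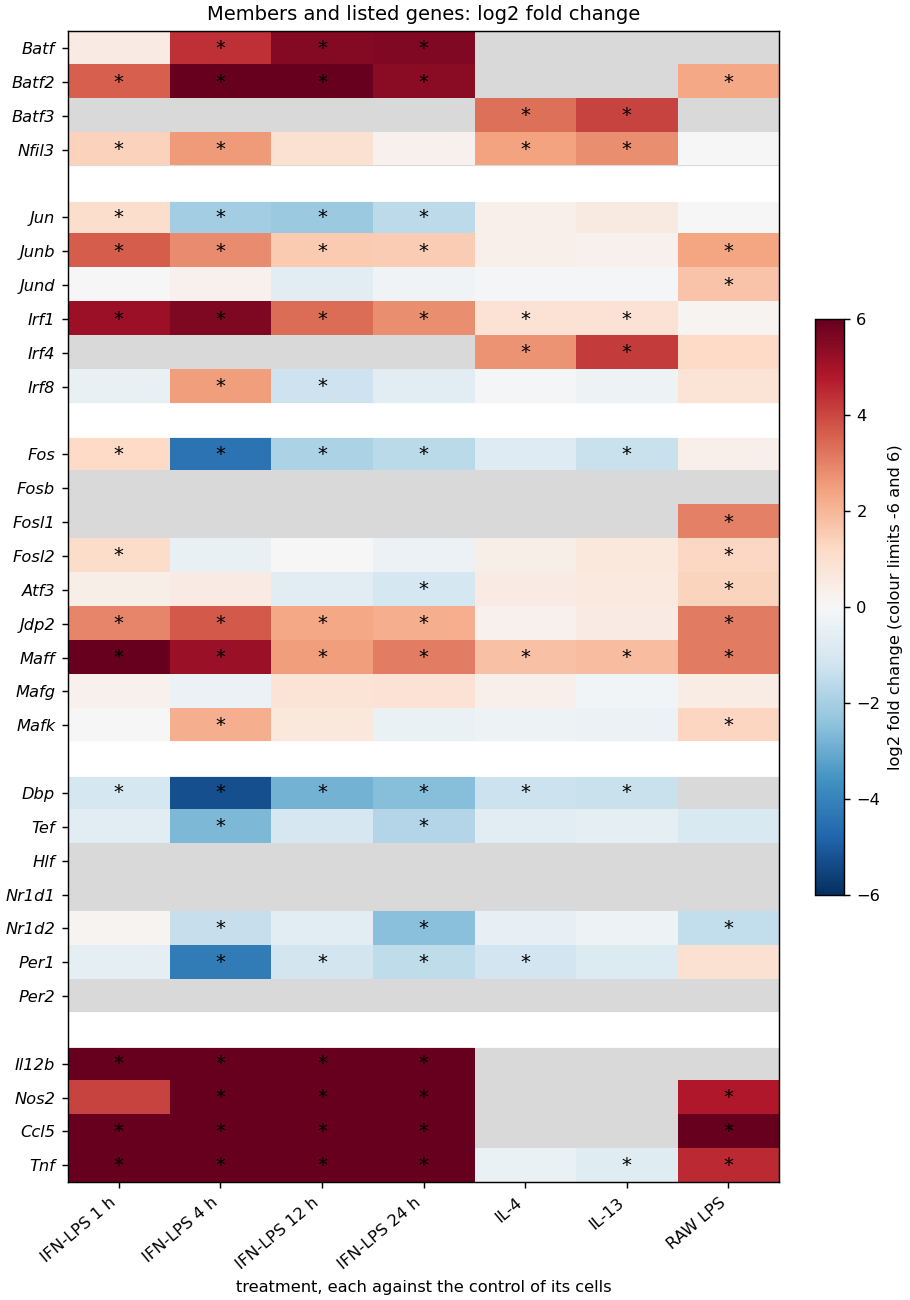
Log2-fold change (colour, limits -6 and 6, so larger changes share the end colour) of the 4 members and the listed genes (vertical axis, in blocks in the order of the text) in 7 treatments against control (horizontal axis). Stars mark calls and grey marks genes that did not pass the count filter. At 4 h, Dbp, Tef, Nr1d2 and Per1 are blue while Batf, Batf2 and Nfil3 are red.

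Genes with the most similar pattern were ranked by Pearson's r of log2 CPM over the 9 group means among 9622 genes, as a description in which the groups share the same libraries. For Batf they were Ccr7 (0.994), Epsti1 (0.993), Isg20 (0.993), Ifit1bl1 (0.993) and BC147527 (0.991). For Batf2 they were Casp4 (0.994), Igtp (0.991), Rsad2 (0.990), Cmpk2 (0.990) and Cd69 (0.989). For Batf3 they were Clta (0.969), Slc39a6 (0.967), Chil3 (0.965), Ccl6 (0.961) and Inpp5a (0.960), and for Nfil3 Nrbf2 (0.932), Ppp2r3a (0.916), Socs2 (0.899), Pi4ka (0.898) and Fchsd2 (0.894). Among the members, r was 0.882 between Batf and Batf2, 0.735 between Batf3 and Nfil3 and 0.01 between Batf and Nfil3.

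Ccr7, the gene closest to Batf, is also 1 of 7 dendritic cell genes followed as markers. Their summed level was 0.595 to 1.19 CPM in the control samples, 46.6 to 50.8 CPM at 1 h, 15.03 to 18.7 CPM at 4 h, 16.9 to 24.6 CPM at 12 h and 16.6 to 20.1 CPM at 24 h. With IL-4 and IL-13, where Batf3 was highest, it was 0 to 3.42 CPM, with Xcr1, Ccr7 and Dpp4 at 0 in both. Zbtb46 had 5 counts with IL-4 and 5 with IL-13, against 2 in the control, and with IL-13 Clec9a had 5, Itgae 2 and Flt3 1. At 1 h the sum was mostly Clec9a, a lectin of cross-presenting dendritic cells, with a mean of 47.7 CPM. At 12 and 24 h it was mostly Ccr7, with 15.5 and 17.8 CPM. Flt3 was at 0 in the control and all IFN-γ-primed groups, and the part of dendritic cells in the levels of the members was not tested.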

How the data were processed

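RNA-seq libraries, depleted of ribosomal RNA and strand-specific, were made from 21 BMDM and 4 RAW264.7 samples. Per the submitters' processing notes and methods, reads were handled with CASAVA 1.8.2, trimmed with Trimmomatic 0.33 and aligned to mm10 with STAR 2.5.1. Raw read counts, in whole numbers for each gene symbol, were deposited by the authors for both strands together and for each strand. The annotation release is not given in the sources used here. The counts on the sense strand, whose total was 118 times that of the other, were used. Samples were grouped by their titles, and the study calls them independent RNA samples. No 2 replicates agreed within sampling noise (chi-square per degree of freedom 1.30 to 4.53 over 23 pairs). The p-values measure the spread between these samples.

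CPM were scaled to the library total without Rn45s. Tests were run with edgeR 4.0.16 in R 4.3.3 (filterByExpr by group, TMM, robust quasi-likelihood fits, Benjamini-Hochberg adjustment over all genes tested), in separate fits of the time course (9568 genes), of control, IL-4 and IL-13 (9252), of RAW264.7 (9406) and of all 25 samples (10612). The alternatives were RLE size factors, DESeq2 1.42.0, no filter beyond 1 count, Rn45s kept, unstranded counts, the replicate number as a block, all samples in 1 fit or the compared groups alone, and each sample left out in turn. Scaling by library totals without TMM was added after seeing the data. Depth (median 2718848 counts) limits Batf3 and the control levels of Batf and Batf2. Scripts were tested on simulated data. Named genes are the 4 members, the listed partner, AP-1, PAR bZIP and inflammatory genes and, for each member, the 5 genes with the highest r among those with a group mean of at least 10 CPM (log2, prior count 2). The members, lists and markers were chosen with earlier results of these data known. Motifs were searched and figures drawn with Python 3.11.15, pandas 2.3.3 and matplotlib 3.10.9. BMDMs stimulated with LPS alone were not analysed here.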

Additional observations from a re-analysis of the deposited data

Results flagged for a closer look

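The change after 4 h differed between RAW264.7 with LPS alone and BMDMs with IFN-γ-primed LPS for 3 members, by the test of the difference itself in edgeR's fit of all samples. The difference in log2-fold change was -4.94 for Batf2, with means of 1.62 and 7.48 CPM in RAW264.7 control and LPS against 1.38 and 145 CPM in BMDMs. It was -3.86 for Batf, with 3.47 and 4.90 CPM in RAW264.7 against 1.97 and 29.8 CPM in BMDMs. It was -2.66 for Nfil3, with 6.96 and 6.18 CPM in RAW264.7 against 6.51 and 26.9 CPM in BMDMs. Cell type, IFN-γ and the smaller number of samples in RAW264.7 cannot be told apart in these values. Groups of 3 or fewer samples were not searched for outlying samples.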

How the results depend on the processing

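Of 1069 alternative values of the members' log2-fold changes, 1048 kept their direction and their side of the threshold, and of 712 counts of genes or members 706 stayed within 1.5 times. Scaling by library totals alone weakened Nfil3 from 1 to 4 h (0.82) and Batf2 from 4 to 12 h (-0.93). With DESeq2, IL-13 against IL-4 called 3 genes in place of 6 and RAW264.7 LPS called 691 in place of 1041 and 0 members in place of 1 (Batf2 2.39). With a sample left out, IL-13 against IL-4 called 2 to 9 genes, the lowest without IL-4 replicate 3, and RAW264.7 LPS 0 to 1 members, 0 without control replicate 1. The cause of these shifts was not tested. Values near 0 that were not called changed sign. For Batf from 12 to 24 h this gave -0.0030 with Rn45s kept and -0.0017 with all samples in 1 fit. For Nfil3 with LPS in RAW264.7 it gave -0.17 with library totals and -0.035 with all samples, and -0.20 to 0.24 with a sample left out. For RAW264.7 against BMDM control, Batf2 gave 0.0046 with RLE, 0.0051 with DESeq2, 0.22 with library totals, 0.0062 without the filter and -0.36 to 0.20 with a sample left out, and Nfil3 gave 0.096 with library totals and -0.39 to 0.062 with a sample left out. Replicate numbers were not treated as a pairing. Deviations from group means correlated with a mean r of 0.020 between samples of equal number and -0.010 between others in the time course, and 0.0073 and -0.0037 with IL-4 and IL-13. Such means cannot exclude a pairing, and single pairs of equal number ranged from -0.0521 to 0.154 in the time course. With the replicate block, 1 member (Batf3) in place of 0 was called in RAW264.7 against BMDM control, and no other call of a member changed.

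Library totals moved the median of all genes by -0.19, -0.53, -0.31 and -0.22 in the 1, 4, 12 and 24 h comparisons with control, -0.34 from 1 to 4 h, 0.22 from 4 to 12 h, -0.35 and -0.37 for 12 h against IL-4 and IL-13, -0.18 in RAW264.7, 0.25 for RAW264.7 against BMDM control and 0.44 for the difference of changes. The share of higher calls moved with it, in those comparisons from 60.7%, 47.6%, 48.5% and 50.7% to 44.1%, 25.1%, 31.9% and 37.2%, and then from 49.2% to 28.5% from 1 to 4 h, 50.4% to 68.1% from 4 to 12 h, 37.6% to 51.7% from 12 to 24 h, 50.9% to 31.8% and 50.1% to 30.7% against IL-4 and IL-13, 52.5% to 37.4% in RAW264.7 and 41.7% to 70.6% for the difference of changes. Of 151 calls of listed genes, 0 changed direction under either scaling, and 11 were lost with library totals and 1 with RLE. Depth limits Batf3 most, with 2 counts in all at 4 h and 2 at 12 h.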
